A study of Homo sapiens with 12 samples.

Results

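The genes described here are 43 human genes of DNA replication and the cell cycle, chosen by symbol from a fixed list and found in a table of 58735 genes. A total of 26 act at the G1/S boundary or in S phase, when the genome is copied. Another 12 act in G2 and mitosis (G2/M), and 5 regulate progress through G1. They were measured by poly-A RNA sequencing in 12 libraries of enterocytes, which take up nutrients in the gut, made from 1 human induced pluripotent stem cell line, RPChiPS771. All cultures were kept from day 15 to day 23 in a medium that the labels call M3. Control received neither compound, VD3 received 1 µM of vitamin D3, VPA received 100 µM of valproic acid, and VD3VPA received 1 µM of vitamin D3 with 100 µM of valproic acid, with 3 libraries in each group. The study was set up to see how both compounds act on the maturation of these enterocytes. Nothing in the labels ties each library to its own culture, so the p-values speak only of the spread among these libraries, which could be technical.

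A cell that divides first assembles inactive replication origins in G1, when CDC6 and CDT1 load the ring of MCM2 to MCM7 onto DNA, and then fires them in S phase. Free E2F transcription factors switch on most of the S-phase genes once cyclin-dependent kinases have inactivated the RB family. Genes of G2 and mitosis are switched on later, in part through the promoter elements named CHR (cell cycle genes homology region) and CCAAT. In the intestine, dividing cells sit in the crypts, while mature enterocytes have left the cycle.

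The promoters of 6 members are shown because the letters they carry were found at different rates in S-phase and G2/M members. Each is the RefSeq window of GRCh38.p14 from 250 bases before to 50 bases after the gene's start, printed 5′ to 3′ along the gene. Capitals mark every match, on either strand, to the letters of an E2F site (TTTCCCGC, TTTCGCGC, TTTGCCGC or TTTGGCGC), of a CHR (TTTGAA) or to CCAAT. MCM6, a helicase subunit (chr2:135876394-135876693, minus strand), has 4 E2F matches. E2F1, the founding member of the E2F family (chr20:33686336-33686635, minus strand), has 2. CDC6, a loader of the helicase (chr17:40287629-40287928, plus strand), has 1.
MCM6: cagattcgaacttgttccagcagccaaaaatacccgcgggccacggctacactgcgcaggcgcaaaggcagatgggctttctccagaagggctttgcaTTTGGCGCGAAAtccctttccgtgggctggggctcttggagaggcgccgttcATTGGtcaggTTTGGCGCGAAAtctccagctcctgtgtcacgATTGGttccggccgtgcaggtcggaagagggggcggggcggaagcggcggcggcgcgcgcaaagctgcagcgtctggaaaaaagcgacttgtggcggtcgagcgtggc
E2F1: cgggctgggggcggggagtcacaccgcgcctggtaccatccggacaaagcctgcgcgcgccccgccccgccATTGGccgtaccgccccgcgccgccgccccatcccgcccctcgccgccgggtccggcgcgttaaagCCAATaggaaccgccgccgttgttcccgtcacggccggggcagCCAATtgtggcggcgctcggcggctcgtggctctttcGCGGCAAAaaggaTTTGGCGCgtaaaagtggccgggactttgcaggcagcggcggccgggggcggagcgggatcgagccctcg
CDC6: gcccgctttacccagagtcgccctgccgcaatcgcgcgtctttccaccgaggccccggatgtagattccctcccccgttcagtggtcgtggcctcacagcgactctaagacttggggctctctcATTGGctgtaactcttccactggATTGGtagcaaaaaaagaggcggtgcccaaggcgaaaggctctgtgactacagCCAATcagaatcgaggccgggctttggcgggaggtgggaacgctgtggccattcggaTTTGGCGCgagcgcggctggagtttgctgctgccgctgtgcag
CDC20, the activator of the ubiquitin ligase that starts anaphase (chr1:43358731-43359030, plus strand), has 2 CHR matches. MKI67, which codes for the Ki-67 antigen of dividing cells (chr10:128126374-128126673, minus strand), also has 2. CDK1, the kinase that drives entry into mitosis (chr10:60778228-60778527, plus strand), has 3 CHR matches and 1 E2F match in the window shown, 1 of 2 that the table gives for it.
CDC20: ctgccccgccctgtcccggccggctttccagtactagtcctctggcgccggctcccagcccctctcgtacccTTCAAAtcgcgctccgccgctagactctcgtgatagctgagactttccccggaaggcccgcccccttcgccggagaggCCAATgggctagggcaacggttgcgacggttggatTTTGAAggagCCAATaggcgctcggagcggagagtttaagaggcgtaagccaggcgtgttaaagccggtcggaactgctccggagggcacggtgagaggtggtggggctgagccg
MKI67: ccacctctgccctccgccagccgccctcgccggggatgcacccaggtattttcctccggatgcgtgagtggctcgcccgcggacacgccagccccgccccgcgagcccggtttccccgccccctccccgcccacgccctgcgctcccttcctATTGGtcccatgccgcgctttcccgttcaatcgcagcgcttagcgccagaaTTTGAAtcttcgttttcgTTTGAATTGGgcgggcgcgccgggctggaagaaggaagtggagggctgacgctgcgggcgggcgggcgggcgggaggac
CDK1: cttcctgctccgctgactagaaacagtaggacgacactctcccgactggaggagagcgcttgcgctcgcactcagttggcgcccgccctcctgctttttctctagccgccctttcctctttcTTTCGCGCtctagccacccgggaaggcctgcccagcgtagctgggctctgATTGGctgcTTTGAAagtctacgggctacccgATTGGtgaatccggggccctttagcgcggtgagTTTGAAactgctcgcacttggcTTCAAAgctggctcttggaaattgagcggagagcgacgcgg
In MCM6 the E2F matches overlap in 2 pairs, each pair being read on opposite strands. In MKI67 the second CHR match overlaps the CCAAT match that follows it.

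A window was found for 36 of the 43 members. E2F letters stood in 14 of 23 S-phase members (60.9%) and in 1 of 10 G2/M members, against 4.0% of the 27305 gene symbols in the table. The 14 were CDC6, CDT1, E2F1, GINS2, LIG1, MCM2, MCM3, MCM6, MCM7, PCNA, POLA1, POLE, TYMS and UHRF1. CHR letters stood in 6 of 10 G2/M members (60.0%), namely CCNB2, CDC20, CDK1, MKI67, PLK1 and TOP2A, and in 1 of 23 S-phase members (4.3%), against 18.2% of all symbols. CCAAT was in the windows of all 10 G2/M members that had one, in 14 of 23 S-phase members (60.9%) and in 39.7% of all symbols. These are matches of letters only, and the libraries hold no measure of binding.

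Each library had between 32160289 and 43998467 fragments on genes. Values are FPKM, fragments per kilobase of gene length scaled to library size, so levels can be compared between genes. Of the 43 members, 42 reached the mean of 0.1 FPKM over all libraries that was asked of a tested gene. PRIM1, the primase subunit that starts each new strand, stood below it with only 1 to 14 fragments in a library and was not tested. UHRF1 passed through its Control libraries alone, with a mean of 0.0744 FPKM over the treated groups, so that a tested UHRF1 had to be higher in Control. Its differences are given as a description, and counts of S-phase members are also given without it, a choice made after its values were seen. The enterocyte label was checked on 12 marker genes: VIL1 and CDX2 were present in every group, with means of 132 ± 3.53 and 49.6 ± 6.07 FPKM in Control, while the sucrase-isomaltase gene SI stood at 1.15 ± 0.0839 FPKM. The hepatocyte markers AFP and ALB were abundant as well, at 26950.0 ± 409 and 1500.0 ± 70.4 FPKM in Control. POU5F1, SOX2 and NANOG, which define pluripotent cells, had group means of at most 0.0150 FPKM.

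Most of the S-phase members were lower than in Control with each treatment, as were most of the G2/M members. With VD3, 19 of 25 tested S-phase members and 12 of 12 G2/M members fell, and none rose, where 22.8% of all 20206 tested genes were called lower and 23.4% higher. A gene was called at an adjusted p under 0.05 in limma, after Benjamini-Hochberg adjustment over all tested genes. With VPA, 16 of 25 S-phase and 11 of 12 G2/M members fell and none rose, against 17.0% of all genes called lower and 20.4% called higher. With VD3VPA, 19 S-phase members fell and 1 rose, and 7 G2/M members fell, against 24.4% of all genes called lower and 24.2% called higher. Without UHRF1 the S-phase members that fell were 18 of 24 with VD3, 15 with VPA and 18 with VD3VPA. The median log2 change of the S-phase members was -0.65 with VD3, -0.77 with VPA and -0.85 with VD3VPA. For the G2/M members it was -1.25, -0.93 and -0.75, while the medians of all tested genes were 0.005, -0.014 and -0.003. The 3 comparisons share the Control libraries, so they are not independent of each other. Log2 changes are differences of log2(FPKM + 0.1), which understate the change of low genes. In RNA from many cells, fewer dividing cells and less RNA per cell cannot be told apart.

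**Figure D1:**
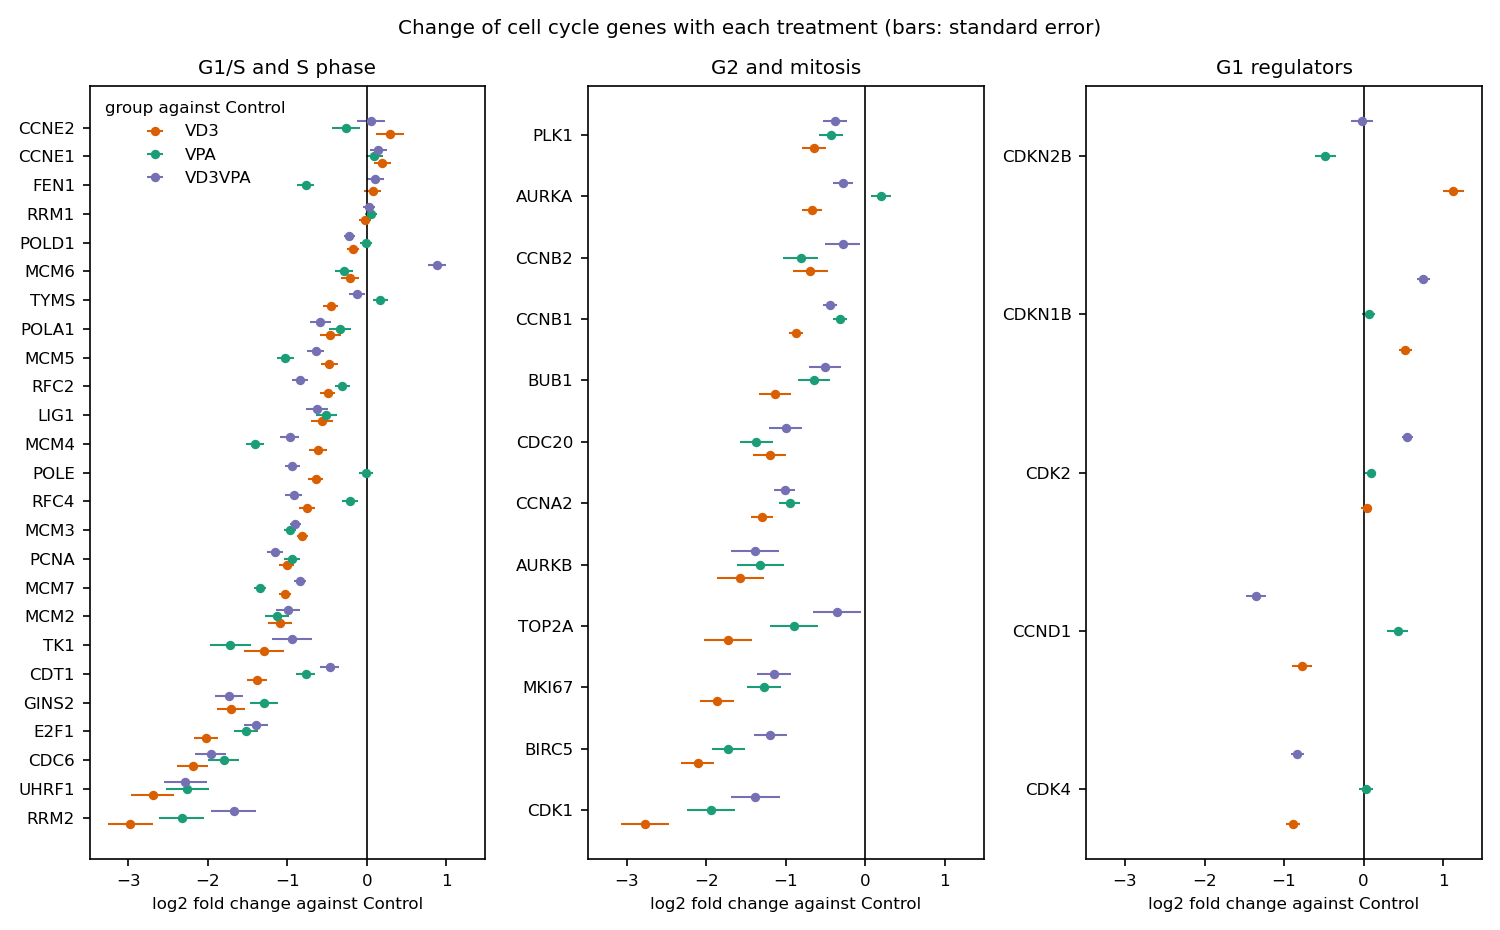
Log2 fold change against Control (x axis) of the 42 tested members in VD3, VPA and VD3VPA, with points for the estimate and bars for the standard error of the limma fit, 3 libraries a group. Most S-phase members and all G2/M members lie left of 0 with VD3, with RRM2 at -2.98 and CDK1 at -2.77 as the lowest of their lists on this log2(FPKM + 0.1) scale, while the G1 regulators lie on both sides.

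The S-phase and G2/M genes did not keep the same distance in every group. The mean log2(FPKM + 0.1) of the 26 S-phase members was 0.97 to 1.23 in the Control libraries, 0.19 to 0.26 in VD3, 0.21 to 0.35 in VPA and 0.34 to 0.38 in VD3VPA. The same mean over the 12 G2/M members was -0.070 to 0.24 in Control, -1.48 to -1.25 in VD3, -0.99 to -0.83 in VPA and -0.89 to -0.58 in VD3VPA. Control therefore stood above every treated library on both measures, and VD3 had the 3 lowest G2/M values. The S-phase mean exceeded the G2/M mean by 1.07 ± 0.098 in Control (SD, n = 3), 1.56 ± 0.16 in VD3, 1.21 ± 0.060 in VPA and 1.10 ± 0.13 in VD3VPA. The VD3 libraries, at 1.45 to 1.74, lay above all other libraries, which spanned 0.97 to 1.28. These are descriptions of chosen lists and carry no test.

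**Figure D2:**
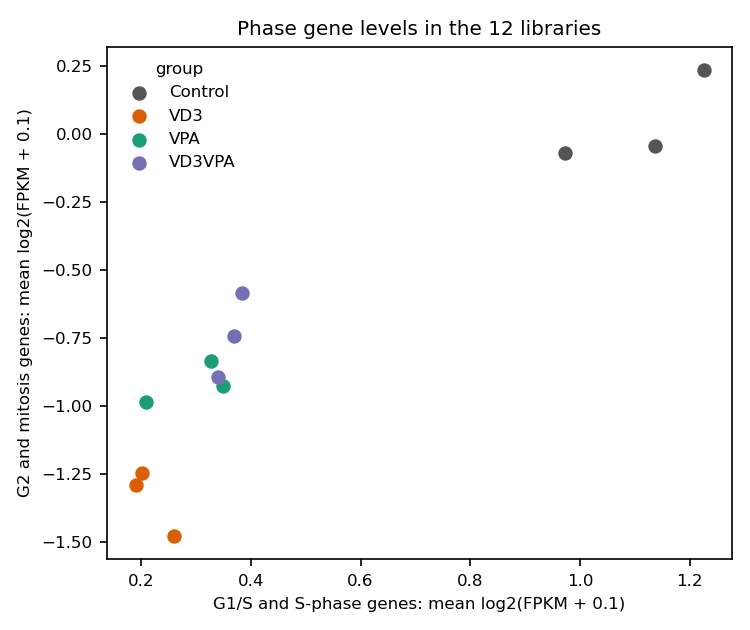
Mean log2(FPKM + 0.1) of the 26 G1/S and S-phase members (x axis) against that of the 12 G2 and mitosis members (y axis), 1 point a library, coloured by group. The 3 Control libraries lie at the upper right, and the VD3 libraries are the lowest on the y axis, from -1.48 to -1.25.

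Markers of other cell states differed between the groups to unequal degrees. The 12 enterocyte markers summed to 1913 to 2178 FPKM in Control, 5141 to 7215 in VD3, 5218 to 5915 in VPA and 6577 to 7780 in VD3VPA. APOA4 was the largest term, and without it the sums were 1300.4 to 1425 FPKM in Control, 1745 to 1793 in VD3, 1655 to 1764 in VPA and 1877 to 2037 in VD3VPA. The mean log2(FPKM + 0.1) of the 12 markers was 5.19 in Control, 6.29 in VD3, 5.36 in VPA and 6.27 in VD3VPA, and their median log2 changes against Control were 0.17, 0.32 and 0.008. Of these 12 markers, 5 rose and 2 fell with VD3, 6 rose and 2 fell with VPA, and 5 rose and 4 fell with VD3VPA, where 23.4%, 20.4% and 24.2% of all genes were called higher and 22.8%, 17.0% and 24.4% lower. Of 10 markers of pluripotent cells, 7 were tested, of which 2 rose and 2 fell with VD3, 5 rose and none fell with VPA, and 3 rose and 2 fell with VD3VPA. These 10 summed to 9.13 to 9.51 FPKM in Control, 7.60 to 8.85 in VD3, 10.6 to 12.4 in VPA and 6.93 to 7.58 in VD3VPA, so VPA was the highest. The 10 markers of crypt stem cells summed to 11.5 to 12.4 FPKM in Control and 9.79 to 10.6 in VD3. In VPA they summed to 8.84 to 11.04 and in VD3VPA to 11.6 to 12.5, which overlapped Control. Of 7 tested, 1 rose and 3 fell with VD3, 1 rose and 1 fell with VPA, and 2 rose and 5 fell with VD3VPA. Their median log2 changes were -0.226, -0.036 and -0.847 in that order. LGR5 and OLFM4, which define those cells, had group means of at most 0.240 and 0.123 FPKM. The 10 hepatocyte markers summed to 37600 to 38910 FPKM in Control and 37550 to 43490 in VPA. They summed to 33160 to 36290 in VD3 and 30880 to 35030 in VD3VPA, below every library without VD3. Of the 10, 3 rose and 2 fell with VD3, 3 rose and 5 fell with VPA, and 2 rose and 3 fell with VD3VPA. Their median log2 changes were 0.068, 0.005 and -0.145 in that order. The 10 mesenchymal markers summed to 13.6 to 17.7 FPKM in Control, 17.3 to 18.4 in VD3, 20.8 to 25.6 in VPA and 17.9 to 39.5 in VD3VPA. The 39.5 was VD3VPA replicate 3 alone, with 17.9 and 18.3 in replicates 1 and 2. Of 7 tested, 2 rose and none fell with VD3, 1 rose and 1 fell with VPA, and 2 rose and 1 fell with VD3VPA. The part of any of these in the cell cycle results was not tested.

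The MCM helicase, which unwinds DNA at the replication fork, had 5 of its 6 subunit genes lower with each treatment. Over all genes 22.8% were called lower with VD3, 17.0% with VPA and 24.4% with VD3VPA. MCM7 (chr7:100092728-100101940) stood at 6.08, 5.18 and 5.93 FPKM in Control, 2.71, 2.68 and 2.88 in VD3, 2.28, 2.25 and 2.05 in VPA and 2.93, 3.22 and 3.27 in VD3VPA. Every treated library was below every Control library, and the VPA libraries were the lowest. Its log2 change was -1.03 ± 0.074 (SE) with VD3, -1.34 ± 0.074 with VPA and -0.85 ± 0.074 with VD3VPA (adjusted p 9.84e-07, 6.89e-07 and 3.33e-06). MCM3 stood at 7.36, 6.88 and 8.35 FPKM in Control, 4.17, 4.13 and 4.404 in VD3, 4.05, 3.74 and 3.58 in VPA and 4.05, 3.89 and 3.97 in VD3VPA. MCM4 stood at 3.298, 2.78 and 3.81 FPKM in Control, 2.22, 2.09 and 1.99 in VD3, 1.16, 1.07 and 1.299 in VPA and 1.75, 1.61 and 1.5 in VD3VPA. Neither gene's treated libraries overlapped Control, and MCM4 was lower in VPA than in VD3 without overlap. MCM2 stood at 1.36, 1.103 and 1.51 FPKM in Control, 0.469, 0.573 and 0.668 in VD3, 0.635, 0.486 and 0.525 in VPA and 0.581, 0.634 and 0.619 in VD3VPA, and MCM5 at 1.24, 1.25 and 1.31 FPKM in Control, 0.966, 0.863 and 0.827 in VD3, 0.562, 0.663 and 0.498 in VPA and 0.769, 0.7599 and 0.7904 in VD3VPA. The MCM2 libraries of the 3 treated groups overlapped each other, whereas MCM5 was lower in VPA than in VD3 or VD3VPA. With VPA the log2 changes were -0.97 ± 0.071 for MCM3, -1.41 ± 0.11 for MCM4, -1.13 ± 0.15 for MCM2 and -1.02 ± 0.105 for MCM5. With VD3 they were -0.81 ± 0.071, -0.62 ± 0.11, -1.09 ± 0.15 and -0.47 ± 0.105 for the same genes. The annotation places AP4M1 on the opposite strand over 8.94% of the exonic bases of MCM7, and the strand setting of the counting is not given in the sources used here, so a share of its reads may belong to that gene. The same holds for MCM2 and TPRA1, which covers 0.92% of the exonic bases of MCM2 at a mean of 8.18 FPKM.

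MCM6 (chr2:135839626-135876426) was the exception in the complex. It stood at 6.71, 4.94 and 6.05 FPKM in Control, 4.69, 5.34 and 5.11 in VD3, 5.47, 4.28 and 4.67 in VPA and 10.3, 11.1 and 11.2 in VD3VPA. Its VD3 and VPA libraries overlapped Control, and all 3 VD3VPA libraries were above the other 9. Against Control its log2 change was -0.21 ± 0.11 with VD3 and -0.29 ± 0.11 with VPA, neither called (adjusted p 0.148 and 0.0684). With VD3VPA it rose by 0.88 ± 0.11 (adjusted p 6.23e-05), and it was also higher than with VD3 alone (1.09 ± 0.11, adjusted p 0.000117) and VPA alone (1.16 ± 0.11, adjusted p 7.37e-06). It was the only S-phase member called higher against Control in any of the 3 treated groups. GINS2, a subunit of the complex that activates the loaded helicase, stood at 0.791, 0.763 and 0.926 FPKM in Control, 0.229, 0.188 and 0.139 in VD3, 0.301, 0.3101 and 0.226 in VPA and 0.162, 0.1496 and 0.228 in VD3VPA. All treated libraries were below Control, and the log2 changes were -1.71 ± 0.18, -1.29 ± 0.18 and -1.73 ± 0.18 in the order VD3, VPA and VD3VPA.

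**Figure D3:**
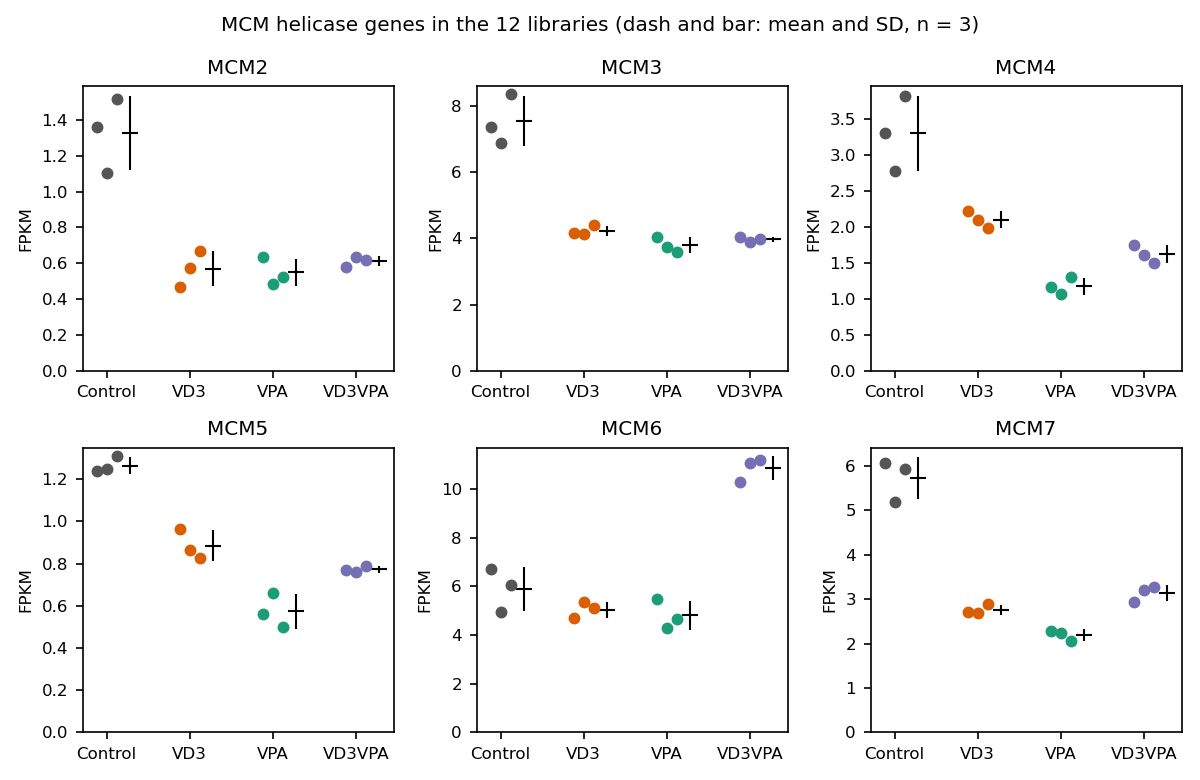
FPKM (y axis, from 0) of MCM2 to MCM7 in each library, grouped by treatment, with the mean and SD of 3 libraries beside the points. MCM6 alone is highest in VD3VPA, at 10.3 to 11.2 FPKM, while the other 5 are highest in Control.

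The licensing gene CDC6 and the E2F1 gene fell strongly with each treatment, and the licensing gene CDT1 fell most with VD3. CDC6 stood at 1.24, 0.9196 and 1.23 FPKM in Control, 0.196, 0.216 and 0.104 in VD3, 0.288, 0.2703 and 0.199 in VPA and 0.233, 0.199 and 0.206 in VD3VPA. CDT1, its partner in helicase loading, stood at 2.11, 1.68 and 1.95 FPKM in Control, 0.718, 0.658 and 0.636 in VD3, 1.23, 0.969 and 1.05 in VPA and 1.34, 1.54 and 1.196 in VD3VPA. Both were highest in Control without overlap, and the CDT1 values were lowest in VD3. CDC6 fell by 2.19 ± 0.20 on the log2 scale with VD3, and its changes were -1.802 ± 0.199 with VPA and -1.97 ± 0.199 with VD3VPA. CDT1 changed by -1.38 ± 0.12, -0.77 ± 0.12 and -0.47 ± 0.12, and was higher in VD3VPA than in VD3 (0.92 ± 0.12, adjusted p 0.000457). E2F1 (chr20:33675683-33686404) stood at 1.64, 1.31 and 1.73 FPKM in Control, 0.3603, 0.306 and 0.255 in VD3, 0.448, 0.587 and 0.407 in VPA and 0.552, 0.523 and 0.5102 in VD3VPA. Its 9 treated libraries lay below Control, and those of VD3 lay below those of VPA and VD3VPA. E2F1 changed by -2.03 ± 0.15 with VD3 (adjusted p 1.43e-06), -1.52 ± 0.15 with VPA (adjusted p 2.44e-05) and -1.39 ± 0.15 with VD3VPA (adjusted p 1.99e-05). The difference between VD3 and VPA (-0.51 ± 0.15, adjusted p 0.0177) was no longer called without VD3 replicate 3 or without VPA replicate 2, nor with voom on the recovered fragments (adjusted p up to 0.0726 over these and the other settings).

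UHRF1, which helps copy DNA methylation onto the new strand, stood at 0.819, 0.583 and 1.097 FPKM in Control, 0.0242, 0.0645 and 0.0354 in VD3, 0.125, 0.0825 and 0.06602 in VPA and 0.0571, 0.0649 and 0.15 in VD3VPA. The Control libraries were above all others, and the VD3 values rest on 23 fragments in all. Its log2 differences from Control were -2.69 ± 0.27, -2.26 ± 0.27 and -2.29 ± 0.27, which the filter on the mean favours and which are given as a description. The cyclin E genes, whose products activate CDK2 at the G1/S boundary, had no called change against Control. CCNE1 was 2.14 to 2.85 FPKM in Control, 2.65 to 2.94 in VD3, 2.32 to 2.76 in VPA and 2.55 to 2.83 in VD3VPA, with log2 changes of 0.196 ± 0.11, 0.095 ± 0.11 and 0.14 ± 0.11, none called. CCNE2 stood at 0.317, 0.341 and 0.282 FPKM in Control, 0.446, 0.4296 and 0.345 in VD3, 0.294, 0.178 and 0.2704 in VPA and 0.401, 0.321 and 0.272 in VD3VPA, and no change against Control was called for it (0.29 ± 0.18, -0.27 ± 0.18 and 0.053 ± 0.18). VD3 exceeded VPA for CCNE2 by 0.56 ± 0.18 (adjusted p 0.0255), a call lost without VD3 replicate 1, VD3 replicate 2 or VPA replicate 2 (adjusted p up to 0.0974 over all settings). INTS8 covers 37.05% of the exonic bases of CCNE2 on the opposite strand, so the level of CCNE2 is uncertain.

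The genes that supply nucleotides did not move as a block. RRM2 (chr2:10120698-10131419), the ribonucleotide reductase subunit that is made in S phase, stood at 1.72, 1.496 and 2.24 FPKM in Control, 0.169, 0.0815 and 0.182 in VD3, 0.432, 0.319 and 0.138 in VPA and 0.453, 0.483 and 0.5498 in VD3VPA. Control was above all treated libraries, VD3 was the lowest apart from VPA replicate 3, and VD3VPA lay above both single treatments. Its changes of -2.98 ± 0.28 with VD3, -2.33 ± 0.28 with VPA and -1.67 ± 0.28 with VD3VPA were called. The mean in VD3 was 7.95% of that in Control, against 4.96% for UHRF1, although UHRF1 had the smaller log2(FPKM + 0.1) difference. RRM1, the partner subunit that is present throughout the cycle, was 2.68 to 2.99 FPKM in Control, 2.57 to 3.03 in VD3, 2.86 to 2.91 in VPA and 2.66 to 3.01 in VD3VPA. Its groups overlapped, and its changes of -0.029 ± 0.075, 0.047 ± 0.075 and 0.026 ± 0.075 were not called. TK1, the thymidine kinase of dividing cells, stood at 2.25, 2.06 and 2.97 FPKM in Control, 1.02, 1.03 and 0.734 in VD3, 0.498, 1.12 and 0.502 in VPA and 1.22, 1.13 and 1.26 in VD3VPA. Its treated libraries were all below Control, with changes of -1.297 ± 0.25, -1.72 ± 0.25 and -0.94 ± 0.25. TYMS, which makes thymidylate, stood at 3.34, 2.65 and 3.11 FPKM in Control, 2.48, 2.005 and 2.06 in VD3, 3.59, 3.41 and 3.24 in VPA and 2.91, 2.77 and 2.63 in VD3VPA. The 3 VD3 libraries were the lowest, and Control overlapped both VPA and VD3VPA. TYMS changed by -0.46 ± 0.098 with VD3 (adjusted p 0.00278), by 0.17 ± 0.098 with VPA and by -0.12 ± 0.098 with VD3VPA, the last 2 not called, and VD3 differed from VPA by -0.63 ± 0.098 (adjusted p 0.000305). ENOSF1 overlaps 39.15% of the exonic bases of TYMS on the opposite strand, and its mean of 6.27 FPKM exceeds that of TYMS, 2.85, so the TYMS values are uncertain.

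Among the fork proteins, the sliding clamp fell with every treatment, whereas the flap nuclease fell with VPA alone. PCNA, the clamp that holds DNA polymerases on the template, stood at 9.93, 9.03 and 11.8 FPKM in Control, 5.09, 4.998 and 4.93 in VD3, 4.998, 5.22 and 5.599 in VPA and 4.91, 4.77 and 3.96 in VD3VPA. The treated libraries lay between 3.96 and 5.60 FPKM and none reached Control, with changes of -1.01 ± 0.10, -0.94 ± 0.10 and -1.15 ± 0.10. FEN1 (chr11:61792637-61797244), which trims Okazaki fragments, stood at 9.14, 8.104 and 9.46 FPKM in Control, 10.01, 8.09 and 10.1 in VD3, 5.42, 5.6 and 4.52 in VPA and 10.1, 9.86 and 8.75 in VD3VPA. The VPA libraries were below the other 9, which overlapped. FEN1 changed by -0.77 ± 0.11 with VPA (adjusted p 0.000219), by 0.074 ± 0.11 with VD3 and by 0.105 ± 0.11 with VD3VPA, the last 2 not called. VD3 and VD3VPA were higher than VPA by 0.85 ± 0.11 and 0.88 ± 0.11 (adjusted p 6.38e-05 and 4.69e-05). FEN1 shares 1.98% of its exonic bases with FADS2 on the same strand and 6.7% with TMEM258 on the opposite strand, at mean levels of 51.8 and 15.0 FPKM. RFC2 and RFC4 belong to the loader of the clamp. EIF4A2 covers 0.7% of the exonic bases of RFC4 on the opposite strand, at a mean of 58.6 FPKM, so the RFC4 level is uncertain. RFC4 stood at 1.901, 1.79 and 2.11 FPKM in Control, 1.13, 1.15 and 1.03 in VD3, 1.66, 1.63 and 1.66 in VPA and 0.814, 1.11 and 1.01 in VD3VPA, and VD3 and VD3VPA were below both other groups without overlap. POLE, the catalytic subunit of the leading-strand polymerase, stood at 1.297, 1.26 and 1.34 FPKM in Control, 0.783, 0.816 and 0.789 in VD3, 1.34, 1.22 and 1.32 in VPA and 0.555, 0.6297 and 0.721 in VD3VPA. Control and VPA overlapped, VD3 was lower and VD3VPA was the lowest. RFC4 and POLE changed by -0.75 ± 0.105 and -0.65 ± 0.094 with VD3, by -0.21 ± 0.105 and -0.011 ± 0.094 with VPA, neither called, and by -0.92 ± 0.105 and -0.94 ± 0.094 with VD3VPA.

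RFC2, LIG1, POLA1 and POLD1 are the other fork proteins that were tested. RFC2 was 5.902 to 7.22 FPKM in Control, 4.099 to 5.25 in VD3, 4.92 to 5.52 in VPA and 3.44 to 3.88 in VD3VPA, and changed by -0.49 ± 0.098, -0.31 ± 0.098 and -0.84 ± 0.098. The call with VPA was lost without Control replicate 1, Control replicate 3 or VPA replicate 1 (adjusted p up to 0.105). LIG1, the ligase that joins Okazaki fragments, changed by -0.56 ± 0.14, -0.51 ± 0.14 and -0.63 ± 0.14, from 1.78 ± 0.209 FPKM in Control to 1.17 ± 0.0748, 1.23 ± 0.183 and 1.12 ± 0.176 (SD, n = 3). POLA1, the catalytic subunit of the polymerase that extends the primer, changed by -0.46 ± 0.14 with VD3, by -0.34 ± 0.14 with VPA, not called, and by -0.58 ± 0.14 with VD3VPA. Its call with VD3 was lost without Control replicate 2, Control replicate 3 or VD3 replicate 2 (adjusted p up to 0.0667). POLD1, the catalytic subunit of the lagging-strand polymerase, stayed at 3.75 ± 0.2302 FPKM in Control, 3.31 ± 0.0499 in VD3 and 3.71 ± 0.334 in VPA, with no call, and was 3.21 ± 0.209 in VD3VPA (-0.22 ± 0.075, adjusted p 0.0312). That call was lost without Control replicate 1, Control replicate 3 or VD3VPA replicate 2 (adjusted p up to 0.123). PRIM1, not tested, was 0.0731 to 0.135 FPKM in Control, 0.0105 to 0.0373 in VD3, 0.0461 to 0.0804 in VPA and 0.0328 to 0.0723 in VD3VPA, from 32, 6, 16 and 15 fragments, and VPA overlapped Control.

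All 12 G2/M members fell with VD3, and they were low genes in every group, with CCNB1 in Control the highest group mean, at 3.16 ± 0.224 FPKM (SD, n = 3). CCNB1, the cyclin of mitotic entry and the highest of them by mean level, stood at 3.39, 3.15 and 2.94 FPKM in Control, 1.53, 1.85 and 1.68 in VD3, 2.48, 2.55 and 2.51 in VPA and 2.23, 2.14 and 2.55 in VD3VPA. The groups did not overlap between Control and any treatment, and VD3 was the lowest. CCNB1 changed by -0.87 ± 0.086 with VD3, -0.32 ± 0.086 with VPA and -0.44 ± 0.086 with VD3VPA (adjusted p 1.08e-05, 0.0141 and 0.00136). Without Control replicate 1 the call with VPA was lost (adjusted p 0.0525). CCNA2, the cyclin of S phase and G2, stood at 1.34, 1.43 and 1.64 FPKM in Control, 0.544, 0.566 and 0.499 in VD3, 0.622, 0.7001 and 0.819 in VPA and 0.819, 0.588 and 0.637 in VD3VPA, with changes of -1.30 ± 0.14, -0.95 ± 0.14 and -1.01 ± 0.14. EXOSC9 covers 9.08% of the exonic bases of CCNA2 on the opposite strand, at a mean of 2.45 FPKM, so the CCNA2 level is uncertain. CCNB2, a second mitotic cyclin, stood at 0.477, 0.611 and 0.627 FPKM in Control, 0.344, 0.282 and 0.314 in VD3, 0.381, 0.291 and 0.192 in VPA and 0.315, 0.523 and 0.541 in VD3VPA. Its VD3VPA libraries overlapped Control and its change there was not called (-0.28 ± 0.22), while it changed by -0.69 ± 0.22 with VD3 and -0.81 ± 0.22 with VPA. The VD3 call of CCNB2 was lost without Control replicate 2, Control replicate 3, VD3 replicate 2 or VD3 replicate 3 (adjusted p up to 0.0721), and the VPA call without VPA replicate 3 (adjusted p 0.0517).

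CDK1 (chr10:60778331-60794852), the partner of these cyclins, fell the most of the G2/M members in VD3. It stood at 0.861, 0.924 and 1.44 FPKM in Control, 0.00791, 0.0974 and 0.123 in VD3, 0.129, 0.299 and 0.194 in VPA and 0.299, 0.333 and 0.393 in VD3VPA. Control was above every treated library, VD3 was below every other group, and VD3 replicate 1 held a single CDK1 fragment. The 3 VD3 libraries held 32 CDK1 fragments in all, against 527 in Control, 81 in VPA and 149 in VD3VPA. The log2 changes were -2.77 ± 0.305, -1.94 ± 0.305 and -1.38 ± 0.305 (adjusted p 2.33e-05, 0.000514 and 0.00294). TOP2A, which untangles replicated chromosomes, stood at 0.272, 0.331 and 0.688 FPKM in Control, 0.02898, 0.0635 and 0.06597 in VD3, 0.148, 0.238 and 0.132 in VPA and 0.214, 0.287 and 0.393 in VD3VPA. Control replicate 3 was far above the other Control libraries, and VD3VPA overlapped Control. TOP2A changed by -1.73 ± 0.299 with VD3 (adjusted p 0.000657), by -0.899 ± 0.299 with VPA (adjusted p 0.0355) and by -0.36 ± 0.299 with VD3VPA, not called. Its VPA call was lost without Control replicate 3, VPA replicate 1 or VPA replicate 3 (adjusted p up to 0.136). MKI67 stood at 0.431, 0.457 and 0.602 FPKM in Control, 0.0389, 0.0937 and 0.0616 in VD3, 0.167, 0.155 and 0.115 in VPA and 0.129, 0.163 and 0.2202 in VD3VPA, and BIRC5, the survivin gene of the chromosomal passenger complex, at 0.778, 0.592 and 0.835 FPKM in Control, 0.0897, 0.1004 and 0.0875 in VD3, 0.176, 0.171 and 0.111 in VPA and 0.216, 0.215 and 0.377 in VD3VPA. Both were highest in Control and lowest in VD3 without overlap. MKI67 changed by -1.86 ± 0.21, -1.27 ± 0.21 and -1.14 ± 0.21, and BIRC5 by -2.11 ± 0.21, -1.72 ± 0.21 and -1.19 ± 0.21.

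The mitotic kinases and the spindle checkpoint gene behaved less evenly. AURKA, a kinase of the spindle poles, stood at 2.89, 2.23 and 2.32 FPKM in Control, 1.66, 1.69 and 1.23 in VD3, 2.83, 2.84 and 2.87 in VPA and 1.87, 2.19 and 2.02 in VD3VPA. VD3 was the lowest group, VD3VPA lay between it and Control, and VPA overlapped Control. AURKA changed by -0.67 ± 0.12 with VD3 (adjusted p 0.00107), and by 0.201 ± 0.12 with VPA and -0.28 ± 0.12 with VD3VPA, neither called. AURKB, the kinase of the chromosomal passenger complex, stood at 0.794, 0.858 and 0.92 FPKM in Control, 0.111, 0.251 and 0.352 in VD3, 0.213, 0.204 and 0.493 in VPA and 0.275, 0.275 and 0.249 in VD3VPA. All its treated libraries were below Control and overlapped each other, with changes of -1.57 ± 0.299, -1.32 ± 0.299 and -1.38 ± 0.299. PLK1, a kinase of mitotic entry and exit, stood at 0.592, 0.683 and 0.787 FPKM in Control, 0.451, 0.365 and 0.389 in VD3, 0.536, 0.542 and 0.381 in VPA and 0.475, 0.5398 and 0.497 in VD3VPA. Its treated libraries lay below Control and close to it, and it changed by -0.65 ± 0.15 with VD3 (adjusted p 0.00431), -0.43 ± 0.15 with VPA (adjusted p 0.0426) and -0.38 ± 0.15 with VD3VPA, not called. The VPA call of PLK1 was lost under 12 of 24 other settings, among them the omission of Control replicates 2 or 3, VD3 replicates 2 or 3, VPA replicate 3 or any VD3VPA library (adjusted p up to 0.154). BUB1, a kinase of the spindle checkpoint, stood at 0.295, 0.266 and 0.416 FPKM in Control, 0.0773, 0.11 and 0.0905 in VD3, 0.172, 0.168 and 0.169 in VPA and 0.161, 0.175 and 0.265 in VD3VPA. VD3 was the lowest group, and VD3VPA came closest to Control. Its changes were -1.13 ± 0.20 with VD3, -0.64 ± 0.20 with VPA and -0.51 ± 0.20 with VD3VPA, the last not called, and the VPA call was lost without Control replicate 3 or any VPA library (adjusted p up to 0.109). CDC20 stood at 1.88, 1.35 and 1.97 FPKM in Control, 0.641, 0.739 and 0.685 in VD3, 0.647, 0.721 and 0.458 in VPA and 0.577, 0.946 and 0.9399 in VD3VPA. Its treated libraries were all below Control and overlapped each other, with changes of -1.20 ± 0.21, -1.37 ± 0.21 and -1.002 ± 0.21.

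Of the 5 G1 regulators, CDK2, CDKN2B and CCND1 had the highest mean levels of all members. With VD3, 2 rose and 2 fell, with VPA 1 rose and 1 fell, and with VD3VPA 2 rose and 2 fell. Over all genes 23.4%, 20.4% and 24.2% were called higher and 22.8%, 17.0% and 24.4% lower, so the counts with VPA stand near those of all genes. CCND1 (chr11:69641087-69654474), the cyclin that opens the cycle together with CDK4, stood at 14.3, 12.9 and 16.9 FPKM in Control, 8.34, 10.2 and 7.18 in VD3, 19.9, 18.2 and 21.1 in VPA and 5.2, 5.73 and 6.07 in VD3VPA. The 4 groups did not overlap, with VPA above Control, VD3 below it and VD3VPA the lowest. CCND1 changed by -0.77 ± 0.13 with VD3 (adjusted p 0.000462), 0.43 ± 0.13 with VPA (adjusted p 0.0216) and -1.35 ± 0.13 with VD3VPA (adjusted p 6.2e-06). Its rise with VPA was no longer called with equal FPKM sums, with own fragment totals or with quantile normalization, nor without Control replicates 1 or 2 or VPA replicates 1 or 3 (adjusted p up to 0.0832). LTO1 covers 10.29% of the exonic bases of CCND1 on the opposite strand, at a mean of 2.12 FPKM, so a share of the CCND1 reads may belong to LTO1. CDK4 stood at 8.64, 7.68 and 7.63 FPKM in Control, 4.49, 4.102 and 4.21 in VD3, 8.62, 7.98 and 7.82 in VPA and 4.87, 4.66 and 3.85 in VD3VPA. VD3 and VD3VPA overlapped each other below Control and VPA, which overlapped too. CDK4 changed by -0.89 ± 0.086 with VD3, 0.028 ± 0.086 with VPA, not called, and -0.83 ± 0.086 with VD3VPA. TSPAN31 covers 43.21% of the exonic bases of CDK4 on the opposite strand, at a mean of 2.05 FPKM, so the CDK4 level is uncertain. CDK2, the kinase activated by cyclins E and A, stood at 17.3, 17.03 and 17.4 FPKM in Control, 18.3, 16.8 and 18.2 in VD3, 19.6, 19.5 and 16.3 in VPA and 26.2, 24.1 and 25.6 in VD3VPA. The VD3VPA libraries were above the other 9, which overlapped, and CDK2 rose in VD3VPA against Control by 0.55 ± 0.069 (adjusted p 5.23e-05), with 0.039 ± 0.069 and 0.091 ± 0.069 for VD3 and VPA, neither called.

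The CDK inhibitors of the G1 group differed from each other. CDKN1B, which codes for the inhibitor p27, stood at 5.31, 4.84 and 4.47 FPKM in Control, 6.71, 7.17 and 7.29 in VD3, 5.64, 4.82 and 4.84 in VPA and 8.86, 8.36 and 7.62 in VD3VPA. Control and VPA overlapped, and VD3 and VD3VPA lay above them. CDKN1B rose by 0.53 ± 0.083 with VD3 (adjusted p 0.000325) and 0.75 ± 0.083 with VD3VPA (adjusted p 1.98e-05), and changed by 0.064 ± 0.083 with VPA, not called. CDKN2B (chr9:22002903-22009363), which codes for p15, an inhibitor of CDK4 and CDK6, stood at 11.03, 16.2 and 14.6 FPKM in Control, 29.3, 33.7 and 27.99 in VD3, 9.22, 9.08 and 11.4 in VPA and 12.8, 14.5 and 13.5 in VD3VPA. Only the VD3 libraries stood apart, at 2.17 times the Control mean, and VD3VPA fell within the Control range. CDKN2B rose by 1.13 ± 0.14 with VD3 (adjusted p 4.38e-05), fell with VPA (-0.48 ± 0.14, adjusted p 0.0165) and changed by -0.019 ± 0.14 with VD3VPA, not called. Its fall with VPA was lost without Control replicates 2 or 3 or VPA replicates 1 or 2 (adjusted p up to 0.0713). VD3VPA was below VD3 by -1.15 ± 0.14 (adjusted p 0.000238).

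**Figure D4:**
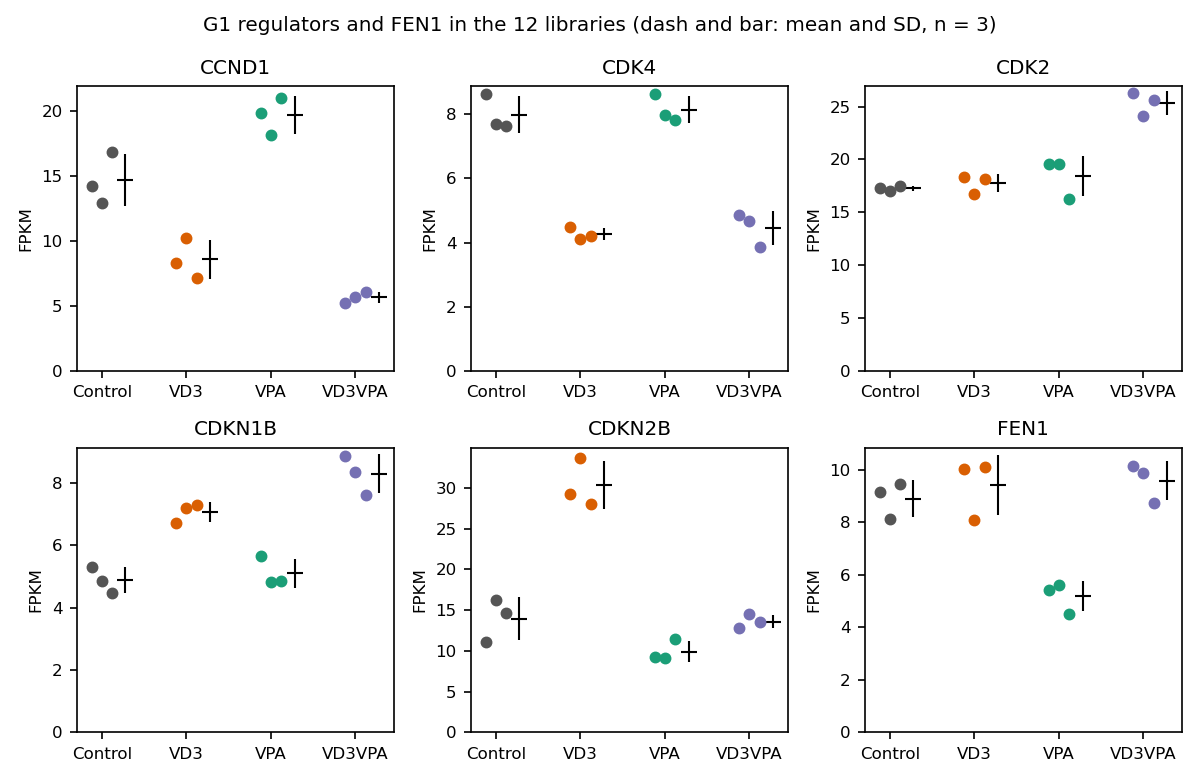
FPKM (y axis, from 0) of the 5 G1 regulators and of FEN1 in each library, grouped by treatment, with the mean and SD of 3 libraries beside the points. CDKN2B is highest in VD3, at 28.0 to 33.7 FPKM, CDK2 is highest in VD3VPA, at 24.1 to 26.2 FPKM, and FEN1 is lowest in VPA, at 4.52 to 5.60 FPKM.

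Several mitotic genes were higher in VD3VPA than in VD3. Between VD3VPA and VD3, 7 of 12 G2/M members were higher and none lower, where 11.7% of all genes were called higher and 11.2% lower. The 7 were AURKA, BIRC5, BUB1, CCNB1, CDK1, MKI67 and TOP2A, with log2 differences of 0.39, 0.91, 0.63, 0.43, 1.39, 0.71 and 1.37 in that order. The count was 4 without VD3 replicate 3, VD3VPA replicate 2 or VD3VPA replicate 3, and 4 also with no filter on low values or with only those groups fitted. BIRC5, CCNB1, CDK1 and TOP2A were called under every setting in which they were tested. Of 25 S-phase members, CDT1, E2F1, MCM6, RRM2 and TYMS were higher and MCM4, POLE and RFC2 lower. RRM2 was higher by 1.31 ± 0.28 (adjusted p 0.00723) and E2F1 by 0.64 ± 0.15 (adjusted p 0.0127). The 8 S-phase calls became 5 without VD3 replicate 1 or VD3 replicate 2 and 4 without VD3 replicate 3, VD3VPA replicate 1 or VD3VPA replicate 2. CDT1, E2F1, MCM6 and RRM2 kept their calls in each of these, and POLE (-0.29 ± 0.094) lost it under 20 of 24 other settings (adjusted p up to 0.161).

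Against VPA, VD3VPA had 6 S-phase members higher and 5 lower, where 23.1% of all genes were called higher and 24.7% lower, so the S-phase count stands near that of all genes. The higher ones were FEN1, MCM4, MCM5, MCM6, MCM7 and TK1, and the lower ones POLD1, POLE, RFC2, RFC4 and TYMS. The call of POLD1 was lost under 14 of 24 other settings (adjusted p up to 0.207), that of TK1 under 7 (adjusted p up to 0.102), that of TYMS under 6 (adjusted p up to 0.0968) and that of MCM5 under 1 (adjusted p 0.0695). Among G2/M members AURKA alone was called, lower by -0.48 ± 0.12 (adjusted p 0.0084). The count was 2 without VPA replicate 1 and 3 without VD3VPA replicate 1. Between the single treatments, VD3 had 5 of 12 G2/M members lower than VPA and none higher, where 24.4% of all genes were called lower and 23.1% higher. These were AURKA (-0.87 ± 0.12), CCNB1 (-0.55 ± 0.086), CDK1 (-0.83 ± 0.305), MKI67 (-0.58 ± 0.21) and TOP2A (-0.83 ± 0.299). AURKA and CCNB1 were called under every setting, and the other 3 were lost under 10 to 14 of 24. The count was 3 without Control replicate 1 or VD3 replicate 3, and 2 without Control replicate 2, VD3 replicate 1, VPA replicate 2 or VD3VPA replicate 2. The S-phase members split evenly, with 5 higher in VD3 (CCNE2, FEN1, MCM4, MCM5 and MCM7) and 5 lower (CDT1, E2F1, POLE, RFC4 and TYMS), which is no larger a share than among all genes.

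The changes with the compounds did not add on the log2 scale for most of the members that fell. The interaction is the change with VD3 in the presence of VPA minus the change with VD3 alone, and it is 0 where log2 changes add. It was called above 0 for 15 of 25 S-phase members and 11 of 12 G2/M members and below 0 for none. Over all genes 13.0% were called above 0 and 16.1% below. Without UHRF1 it was called above 0 for 14 of 24 S-phase members. No value of log2(FPKM + 0.1) can lie below log2(0.1). For CDC6, RRM2, UHRF1, BIRC5, CDK1, MKI67 and TOP2A, both single changes added to the Control mean would lie below it. The interaction of these genes could only be above 0, so their calls do not show how the changes combine. They are part of the 15 and the 11 called. Outside them, the S-phase calls above 0 were CDT1, E2F1, FEN1, GINS2, MCM2 to MCM7, PCNA and TK1. Those of G2/M were AURKB, BUB1, CCNA2, CCNB1, CCNB2, CDC20 and PLK1. The medians were 0.85 for S-phase members, 1.39 for G2/M members and 0.021 for all genes. Control libraries enter the interaction with a plus sign and each change against Control with a minus sign, so a high Control lowers the latter and raises the former. The largest values were those of RRM2 (3.64 ± 0.40, adjusted p 9.7e-05) and CDK1 (3.33 ± 0.43, adjusted p 0.00027). Their size rests on the pseudocount and the method, since RRM2 had 1.503 and CDK1 1.09 with a pseudocount of 1, where MCM6, MCM7 and TK1 exceeded CDK1, and 4.62 and 5.07 with voom on recovered fragments, where CDK1 exceeded RRM2. Both were called under every setting in which they were tested. In both, the combined change was smaller in size than either single change. MCM7 had the smallest adjusted p, at an interaction of 1.52 ± 0.105 (adjusted p 8.64e-06). AURKA (0.19 ± 0.18) was the G2/M member with no call, and RRM1, RFC2, RFC4, POLA1, POLD1, POLE, LIG1, TYMS, CCNE1 and CCNE2 were the S-phase members with none. Among G1 regulators CDK2 was above 0 (0.42 ± 0.097), and CCND1 (-1.01 ± 0.18) and CDKN2B (-0.67 ± 0.19) were below 0. The call of PLK1 (0.702 ± 0.21) was lost under 10 of 24 settings, including the omission of Control replicates 2 or 3, VD3 replicates 2 or 3, VPA replicate 3 and VD3VPA replicates 2 or 3 (adjusted p up to 0.068). The call of AURKB was lost without VPA replicate 2 (adjusted p 0.05), and that of CDKN2B without VD3 replicate 2, VPA replicate 3 or VD3VPA replicate 1 and under all 3 other scalings (adjusted p up to 0.0858).

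**Figure D5:**
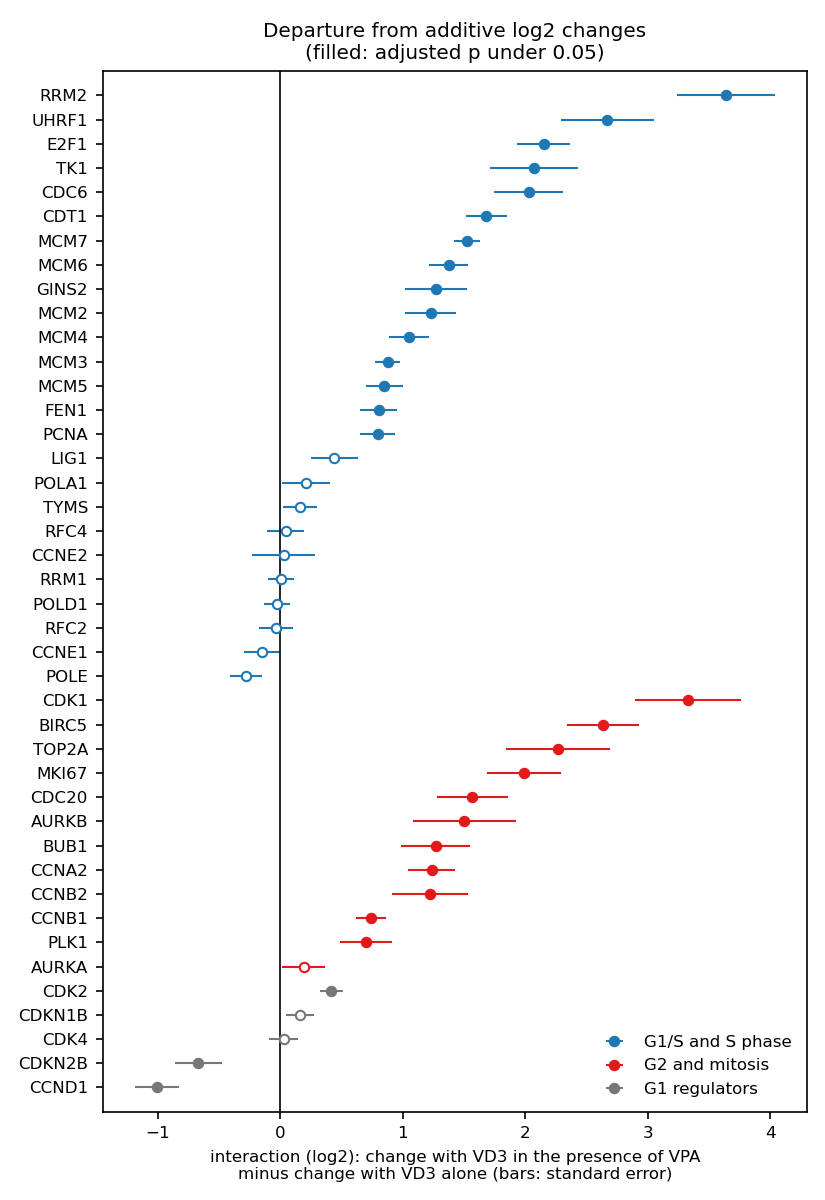
Interaction on the log2 scale (x axis) of the 42 tested members, by list, with points for the estimate, bars for the standard error and filled points for an adjusted p under 0.05. Most S-phase and G2/M members lie right of 0, up to 3.64 for RRM2 and 3.33 for CDK1, and CCND1 and CDKN2B lie left of it.

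The scaling between libraries sets part of the split over all genes. Of all genes called with VPA, 54.5% were higher as deposited, 42.4% after equal FPKM sums and 35.2% with own fragment totals. For the interaction these shares were 44.6%, 56.9% and 68.4%, and for VD3VPA against VD3 they were 51.2% as deposited and 60.6% with own fragment totals. With own fragment totals the median of all genes moved from -0.014 to -0.126 for VPA and from 0.021 to 0.165 for the interaction. No called difference of a member changed sign under any of the 24 other settings.

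Genes of the same processes outside the 43 members were counted in 3 wider lists. Of 45 other replication genes tested, 30 fell and 3 rose with VD3, 30 fell and 3 rose with VPA, and 31 fell and 3 rose with VD3VPA. Of 37 other mitotic genes, 28, 21 and 20 fell and 4, 3 and 4 rose in the same order. Over all genes 22.8%, 17.0% and 24.4% were called lower and 23.4%, 20.4% and 24.2% higher. The interaction was called above 0 for 24 replication genes and 22 mitotic genes and below 0 for 1 of each. Over all genes the shares called above and below 0 were 13.0% and 16.1%. The floor of log2(0.1) holds for low genes of these lists too, and genes bound by it were not taken out of the interaction counts. As with UHRF1, 4 of these replication genes and 7 of these mitotic genes passed the filter through Control alone. Without them, 26, 26 and 27 of 41 replication genes and 21, 17 and 16 of 30 mitotic genes fell. The interaction was then called above 0 for 20 and 17. The highest of the replication list were POLE4, a small polymerase subunit, CTPS1, which makes cytidine triphosphate, and SLBP, the histone mRNA binding protein. CTPS1 went the other way from RRM2. It stood at 7.78, 7.305 and 5.802 FPKM in Control, 21.4, 21.6 and 23.1 in VD3, 13.9, 11.6 and 10.6 in VPA and 24.9, 23.3 and 23.3 in VD3VPA. Its level was highest in VD3 and VD3VPA and lowest in Control, with log2 changes of 1.66 ± 0.11, 0.78 ± 0.11 and 1.77 ± 0.11. POLE4 changed by 0.071 ± 0.069 with VD3, not called, -0.39 ± 0.069 with VPA and -0.48 ± 0.069 with VD3VPA. SLBP changed by -0.32 ± 0.069, -0.296 ± 0.069 and -0.18 ± 0.069, the last not called. Of the mitotic list, CKS2, a small CDK-binding subunit, stood at 17.2, 13.7 and 12.5 FPKM in Control, 5.02, 4.96 and 5.15 in VD3, 17.9, 16.9 and 15.1 in VPA and 6.805, 6.25 and 7.77 in VD3VPA. Its libraries with VD3 were all below those without it, and it changed by -1.49 ± 0.11 with VD3, 0.21 ± 0.11 with VPA, not called, and -1.04 ± 0.11 with VD3VPA. UBE2S, a ubiquitin-conjugating enzyme of mitotic exit, changed by -0.59 ± 0.11, 0.21 ± 0.11 (not called) and -0.57 ± 0.11. CKS1B, the paralogue of CKS2, changed by -0.79 ± 0.091 with VPA and 0.14 ± 0.091 with VD3VPA, not called, while its rise of 0.25 with VD3 was lost under 12 of 24 settings.

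The wider list of regulators was mixed, with 8 of 33 tested genes higher and 16 lower with VD3, 7 and 11 with VPA, and 6 and 13 with VD3VPA, where 23.4%, 20.4% and 24.2% of all genes were called higher and 22.8%, 17.0% and 24.4% lower. The share called higher thus stood near that of all genes. CDKN1C, which codes for the CDK inhibitor p57, was the highest of them. It stood at 202, 186 and 174 FPKM in Control, 180.2, 174 and 179 in VD3, 456, 424 and 369 in VPA and 192, 154 and 159 in VD3VPA. VPA was above the other 9 libraries, which overlapped, with a log2 change of 1.15 ± 0.096 (adjusted p 6.54e-06) and an interaction of -1.24 ± 0.14 (adjusted p 9.49e-05). CDKN1A, which codes for p21, stood at 156, 155 and 156 FPKM in Control, 174, 189 and 173 in VD3, 199, 217 and 227 in VPA and 146, 156 and 149 in VD3VPA. Its order was VPA, then VD3, then Control and VD3VPA, and it rose by 0.46 ± 0.054 with VPA (adjusted p 7.13e-05). The smaller rise of CDKN1A with VD3 (0.195 ± 0.054) was not called after equal FPKM sums, with own fragment totals or without VD3 replicate 2 (adjusted p up to 0.132). CDKN2A rose by 0.94 ± 0.198 and CDKN2D by 0.92 ± 0.23 with VD3, and neither was called with VPA or VD3VPA. CDKN2C was listed at 0 to 0.0549 FPKM and was not tested. SKP2, which targets p27 for degradation, changed by -0.21 ± 0.062 with VD3, 0.197 ± 0.062 with VPA and -0.301 ± 0.062 with VD3VPA, and its VPA call was lost under 9 of 24 settings.

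Of the other E2F genes, E2F3 and E2F6 fell with each treatment as E2F1 did, by smaller log2 changes, while E2F4 and E2F8 did not. E2F8, a repressor of the family, stood at 0.989, 0.632 and 0.719 FPKM in Control, 0.263, 0.271 and 0.322 in VD3, 0.752, 0.363 and 0.588 in VPA and 0.816, 0.832 and 0.733 in VD3VPA, and changed by -1.17 ± 0.21 with VD3 (adjusted p 0.000957), -0.42 ± 0.21 with VPA and 0.041 ± 0.21 with VD3VPA, the last 2 not called. VD3 was below every other library for E2F8. E2F2 was 0.224 to 0.296 FPKM in Control and at most 0.0622 in the 9 treated libraries, but its mean was too low for the test. E2F3 changed by -0.35 ± 0.066, -0.27 ± 0.066 and -0.42 ± 0.066, and E2F6 by -0.26 ± 0.060, -0.35 ± 0.060 and -0.18 ± 0.060. For E2F6 the VD3VPA call was lost without Control replicate 1 or VD3VPA replicate 3 (adjusted p up to 0.116). E2F4, the most abundant of the family here, had no call (-0.15 ± 0.059, -0.12 ± 0.059 and -0.12 ± 0.059). E2F5 changed by -0.74 ± 0.101 with VD3 and E2F7 by -1.002 ± 0.24 with VPA, and their other comparisons are not given here. Of the RB family, RBL2 rose by 0.47 ± 0.093 with VD3 and 0.54 ± 0.093 with VD3VPA, and RBL1 by 0.48 ± 0.14 and 0.52 ± 0.14. The VD3 call of RBL1 was lost without Control replicate 1 (adjusted p 0.0513). RB1 rose by 0.35 ± 0.085 with VPA, a call lost with own fragment totals (adjusted p 0.0532).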

How the data were processed

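RNA was selected by poly-T beads, and 1 µg of it went into NEBNext Ultra libraries, per the labels' protocols. Tools listed in the submitters' processing notes, with no role stated, are DESeq2 1.20.0, HISAT2 2.0.5 and featureCounts 1.5.0-p3, on the build GRCh38.p13. How the counting treated strand is not given in the sources used here. As values, the authors deposited FPKM values and gene lengths for 58735 genes, all of which match GENCODE release 29 in start and end. When FPKM was multiplied by gene length and by 1 factor per library, 100% of values came out as whole fragments within 0.01, and those factors equal median-of-ratios size factors.

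In limma 3.58.1 (R 4.3.3, with version 1.17.8 of the data.table package), log2(FPKM + 0.1) of all 12 libraries was modelled by group means, with a trended prior, for the 20206 genes with a mean of at least 0.1 FPKM. The fit had 8 residual and 2.75 prior degrees of freedom, and a median SE of 0.128 for a pair of groups and 0.180 for the interaction. P-values of each of 7 comparisons were adjusted with Benjamini-Hochberg over all tested genes, with calls at values under 0.05. Other settings changed the pseudocount, the filter, the scaling, the prior and the groups fitted, used voom on recovered fragments, blocked on the replicate number, or dropped 1 library at a time. The fit was tested on counts simulated at a dispersion of 0.01, with 50 genes changed at each fold. Over the 3 comparisons with Control, it recovered 0 to 4.1% of 1.25-fold changes and 24 to 28% of 1.5-fold changes. For 2-fold changes it recovered 57.1 to 71.4%, and for 4-fold changes 81.25 to 89.8%. A small change can therefore go without a call. Far fewer genes were changed than were called in the data, so these shares may differ there. Counting error alone does not give the spread of the fragment numbers. Pairs of libraries within a group differed by more than sampling noise, with chi-square per gene of 3.4 to 17.0.

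All 43 members are named. Values of each library are given for members that lead their role by mean FPKM or that had a called interaction or VD3 against VPA difference. From 3 wider lists of 127 genes, the 3 with the highest mean, E2F and RB family members and CDK inhibitors are named. The members, lists and settings were chosen with earlier results of these data known. Same-numbered libraries had residual correlations of -0.020 to 0.066, none above 0.1, so the numbers were not taken as pairs. Preparation and figures used matplotlib 3.10.9, SciPy 1.17.1, numpy 2.4.6 and pandas 2.3.3 in Python 3.11.15. No promoter window was found for MCM4, MCM5, CCNE2, AURKA, BIRC5, CCND1 and CDK2.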

Additional observations from a re-analysis of the deposited data

Results flagged for a closer look

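The effect of VD3 differed with and without VPA in 29 members, by the interaction in limma at a Benjamini-Hochberg adjusted p under 0.05, where 13.0% of all genes were called above 0 and 16.1% below. All values are log2 differences, VD3 effect with VPA minus VD3 effect without it. Among helicase and licensing genes the difference was 1.23 for MCM2, 0.88 for MCM3, 1.05 for MCM4, 0.85 for MCM5, 1.38 for MCM6, 1.52 for MCM7, 1.27 for GINS2, 2.03 for CDC6 and 1.68 for CDT1. For the other S-phase members it was 3.64 for RRM2, 2.07 for TK1, 0.80 for PCNA, 0.80 for FEN1, 2.67 for UHRF1 and 2.15 for E2F1. Among cyclins and kinases of G2 and mitosis it was 3.33 for CDK1, 1.24 for CCNA2, 0.74 for CCNB1, 1.23 for CCNB2, 1.504 for AURKB, 0.70 for PLK1 and 1.27 for BUB1. The remaining G2/M members had 1.57 for CDC20, 2.27 for TOP2A, 2.63 for BIRC5 and 1.99 for MKI67. The G1 regulators had 0.42 for CDK2, -1.01 for CCND1 and -0.67 for CDKN2B. The values above 0 were 27 and those below 0 were 2. For CDC6, RRM2, UHRF1, BIRC5, CDK1, MKI67 and TOP2A, which are among the 27, only a value above 0 was possible on the log2(FPKM + 0.1) scale. UHRF1 passed the filter on the mean through Control alone, and without it 28 members remained, 26 above 0 and 2 below. With groups of 3 libraries, single libraries were not screened as outliers.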

How the results depend on the processing

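Of 294 member differences, 178 were called and 147 of these were called under every setting in which they were tested, and none of the 178 changed sign. Of the 116 uncalled, 44 changed sign under some setting. The filter at 1 FPKM in 3 libraries, with a pseudocount of 0.1 or 1, tests fewer G2/M members: the calls were 4 for VD3, 3 for VPA and 3 for VD3VPA against Control, 2 for VD3VPA against VD3, 2 for VD3 against VPA and 3 for the interaction. For G2/M members in VD3 against VPA (5 as reported), calls were 2 with a pseudocount of 1 or 0.5 or no filter, and 3 with own fragment totals or only the groups compared. For G2/M in VD3VPA against VD3 (7), they were 4 with no filter or only the groups compared, and for S-phase members (8) they were 5 with either. For G2/M in VD3VPA against VPA (1), they were 2 with equal FPKM sums or no trend in the prior, and 3 with own fragment totals. In these counts the cause was not tested. Leaving out 1 library gave 2 to 5 G2/M calls for VD3 against VPA, 4 to 6 for VD3VPA against VD3, 1 to 3 for VD3VPA against VPA and 7 to 11 for VPA against Control, with 7 without VPA replicate 3. For S-phase members in VD3VPA against VD3 it gave 4 to 7. The replicate block gave 20, 16 and 20 S-phase calls and 12, 10 and 7 G2/M calls for VD3, VPA and VD3VPA against Control. With the block, 172 of 178 calls remained, and 2 of 12 libraries correlated best with their own number in every other group. G2/M genes of few fragments, such as CDK1 with 32 in VD3, limit the precision of their values.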

Other observations

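The collagen gene COL3A1, a mesenchymal marker, was looked at after its spread between libraries was seen. It stood at 1.32, 2.41 and 4.097 FPKM in Control, 0.0776, 1.05 and 1.398 in VD3, 0.696, 3.82 and 1.44 in VPA and 0.444, 2.18 and 17.2 in VD3VPA. In each of the 4 groups the library highest in COL3A1 was also the highest in CDK1, TOP2A and LIG1, which are 2 of 12 G2/M members and 1 of 25 tested S-phase members, against 0.98% of the other 20205 tested genes. These genes are named because they matched, and in VD3 the matches were near ties. There CDK1 had 16 fragments in replicate 3 and 15 in replicate 2. TOP2A stood at 0.0660 and 0.0635 FPKM in the same libraries, from 14 and 16 fragments. LIG1 stood at 1.218 FPKM in VD3 replicate 3 and 1.215 in VD3 replicate 1. Members that vary together are not independent, so these counts carry no test. The mean log2(FPKM + 0.1) of the G2/M members was highest in Control replicate 3, VD3 replicate 2, VPA replicate 2 and VD3VPA replicate 3. Within VD3 it thus parted from COL3A1, which was highest in VD3 replicate 3.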
